A study of Mus musculus with 4 samples.

Results

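Myeloid cells live on a small set of growth factors and their receptors, and the genes of 2 of these ligands and 6 of these receptors were followed here through human immune cells of a breast tumor model. The ligands were CSF1 (M-CSF) and CSF2 (GM-CSF). The receptor genes were CSF1R, the M-CSF receptor, CSF2RA and IL3RA, the chains that bind GM-CSF and IL-3, CSF2RB, the chain that both share, CSF3R, the G-CSF receptor, and FLT3, the receptor of FLT3 ligand. They were chosen as a family, by gene symbol, as 8 of the 36601 genes in the deposited tables, and all 8 had UMIs (unique molecular identifiers, the counted RNA molecules) in both reactions. Their Ensembl identifiers are ENSG00000184371 (CSF1), ENSG00000164400 (CSF2), ENSG00000182578 (CSF1R), ENSG00000198223 (CSF2RA), ENSG00000100368 (CSF2RB), ENSG00000185291 (IL3RA), ENSG00000119535 (CSF3R) and ENSG00000122025 (FLT3).

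As background, M-CSF signals through a receptor tyrosine kinase on monocytes and macrophages and sustains their survival and differentiation. GM-CSF and IL-3 each bind a private alpha chain and signal through the common beta chain and JAK2 to STAT5, whose targets include the feedback inhibitors CISH and SOCS. FLT3 ligand drives dendritic cell development, and IL-3 receptor RNA is a known feature of plasmacytoid dendritic cells.

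The cells were human CD45+ cells sorted from orthotopic tumors of MDA-MB-231, an established triple-negative breast carcinoma line, grown in the mammary fat pad of MISTRG mice. These mice had been irradiated as newborns and engrafted with fetal liver CD34+ cells, and they carry the human genes of M-CSF, GM-CSF and IL-3. Human CSF1 and CSF2 RNA made by mouse cells could therefore not be told apart from that of human cells. The 7 untreated mice carried tumors only, and 7 others drank maraviroc, a small-molecule drug, at 300 mg/l for 10 days from day 21, with all tumors taken on day 31. Tumors of 4 untreated and 3 treated mice were pooled in reaction 1, those of 3 and 4 in reaction 2. Each mouse was known only by its hashtag antibody, whose name gave the treatment, and the number of cell donors was not given in the sources used here.

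Of 29120 barcodes in reaction 1 and 13582 in reaction 2, 11917 and 7900 were kept: they carried 1 hashtag, between 601 and 6000 genes with a UMI, and less than 12.5% of their UMIs from mitochondrial genes. The kept cells of a mouse held 5996882 to 14782548 UMIs. Reaction 1 was shallower, with a median of 3020 UMIs per kept cell against 9691.5, and 49.0% of its kept cells met no gate, against 8.71% in reaction 2. Barcodes shared by both reactions numbered 48 and 75 among the kept cells of reactions 1 and 2. Leaving them out moved none of the levels reported here beyond the spread between mice.

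Cells were put into 19 classes by UMIs of marker genes, none of which is a ligand or receptor gene described here. The gates held 3687 T, 549 NK, 146 B, 135 pDC (plasmacytoid dendritic), 126 mast and 68 tumor cells and 8577 myeloid cells. Among the latter were 688 S100A12 monocytes, 2252 myeloid cells low in C1Q, 409 CD1C cDC2 and 58 cDC1 (conventional dendritic cells), 83 LAMP3 mature dendritic cells and 5087 C1Q macrophages in 8 states. Levels of the gate markers themselves were set by the gates and are given as a description, with CD3D at 814 CPM (UMIs of the gene per 1000000 UMIs of the class) in T cells, MS4A1 at 1430.0 in B cells, CLEC4C at 369.6 in pDC, TPSAB1 at 7185 in mast cells and CLEC9A at 263 in cDC1. KIT, a mast cell gene that no gate used, stood at 803 CPM in mast cells. CD1C stood at 154 CPM in cDC1 as well, against 329 in CD1C cDC2. Lists of neutrophil, progenitor, and eosinophil or basophil markers, other cells that could carry CSF3R, FLT3 or IL3RA, summed to 2.79 and 3.51, 4.53 and 3.77, and 6.80 and 9.27 CPM in reactions 1 and 2. At least 3 UMIs were found in 4 and 18, 10 and 10, and 29 and 35 kept cells, in the same order. The mast cell gate did not exclude eosinophils or basophils.

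Most UMIs of both ligand genes lay in T and NK cells. T cells held 61.6% of the 8431 CSF1 UMIs found in gated cells, NK cells 14.6%, mast cells 2.21% and myeloid cells 20.98%. A further 2628 CSF1 UMIs lay in kept barcodes that met no gate. By level, CSF1 stood at 260 ± 101 CPM in NK cells (SD, n = 14 mice), 246 ± 199 in mast cells (n = 11) and 221 ± 92.8 in T cells (n = 14). These levels did not differ beyond their spread, and at least 1 UMI was seen in 49.2%, 47.6% and 43.3% of the cells. In B cells, which had a mean of 18.4 ± 21.6 CPM (n = 11), the range over mice was 0 to 75.1. Among T cells the lowest mouse had 104 CPM of CSF1, the median was 197 and the highest had 413, so each T-cell value was above each of the 14 values for the sum of all myeloid cells, which ran from 14.4 to 44.7. Within that sum, hypoxic macrophages had 121 ± 160 CPM (n = 12), which did not differ from T cells beyond the spread.

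CSF2 gave far fewer UMIs, and these too were mostly lymphoid. Of 1434 CSF2 UMIs in gated cells, 70.1% lay in T cells, 23.8% in NK cells, 3.21% in myeloid cells, 1.604% in tumor cells and 1.26% in mast cells. A further 810 CSF2 UMIs lay in kept barcodes that met no gate. The mean level was 82.8 ± 59.6 CPM in NK cells (n = 14), 35.4 ± 22.5 in T cells (n = 14), 26.3 ± 42.4 in tumor cells (n = 6) and 16.4 ± 25.9 in mast cells (n = 11). No myeloid class had a mean above 3.71 CPM, and no CSF2 UMI was seen in hypoxic or cycling macrophages, cDC1 or B cells. The gene was carried by few cells, since 254 of 3687 T cells had a CSF2 UMI (6.89%) and 1 of them held 70 of the 1005 UMIs, while 84 of 549 NK cells had one (15.3%) and 1 of them held 40 of 341. In C1Q macrophages without a special state, 0.639% of the cells had a CSF2 UMI.

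NK cells were set against T cells of the same 14 mice. CSF2 was higher in NK cells, with a log2 fold change of 1.19 (SE 0.35, adjusted p = 0.0130, edgeR quasi-likelihood test with Benjamini-Hochberg adjustment over all genes), and it was higher in 9 of 14 mice. Its range was 17.3 to 198 CPM in NK cells and 9.41 to 90.5 in T cells, so the groups overlapped. CSF1 differed by 0.29 (SE 0.14, adjusted p = 0.146) and did not pass. Of the 2 family genes tested 1 was called, where 27.6% of the 9144 genes tested were. In reaction 1 alone the CSF2 difference was 0.52 (adjusted p = 0.526) and was not called. Without the third untreated mouse of reaction 1, CSF1 passed as well, at 0.37 (adjusted p = 0.0334). Of the 30 further genes of these pathways (other ligands and receptors, JAK and STAT signalling, feedback genes), 20 were tested, with 3 higher in NK cells, the kinase gene LYN (1.74, SE 0.17) most, and 7 lower, SOCS3 (-1.59) and CISH (-1.09) most.

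MDA-MB-231 cells, which lack PTPRC by the gate and are few in a CD45+ sort, had 53.2 ± 36.8 CPM of CSF1 (n = 6) and no UMI of CSF2RB, IL3RA, CSF3R or FLT3 in the 6 mice with at least 5 such cells. Against T cells of these mice, CSF1 was lower by 2.02 on the log2 scale (SE 0.32, edgeR adjusted p = 6.7e-08), with 14.3 to 110 CPM against 104 to 304. CSF2 differed by -0.83 (SE 0.49, adjusted p = 0.159), and 1 of the 2 genes tested was called, against 50.1% of all genes. Without the third untreated mouse of reaction 1, CSF2 was called too, at -1.68 (adjusted p = 0.00842). Of the other ligand genes of the family, IL3 stood at 0.35 CPM in T cells, CSF3 had UMIs only in tumor cells among the 19 classes, at 2.05 CPM, and FLT3LG stood at 38.5 CPM in T cells and 23.1 in NK cells. Over the 68 tumor cells, the CSF3 level was near the limit of detection.

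**Figure D1:**
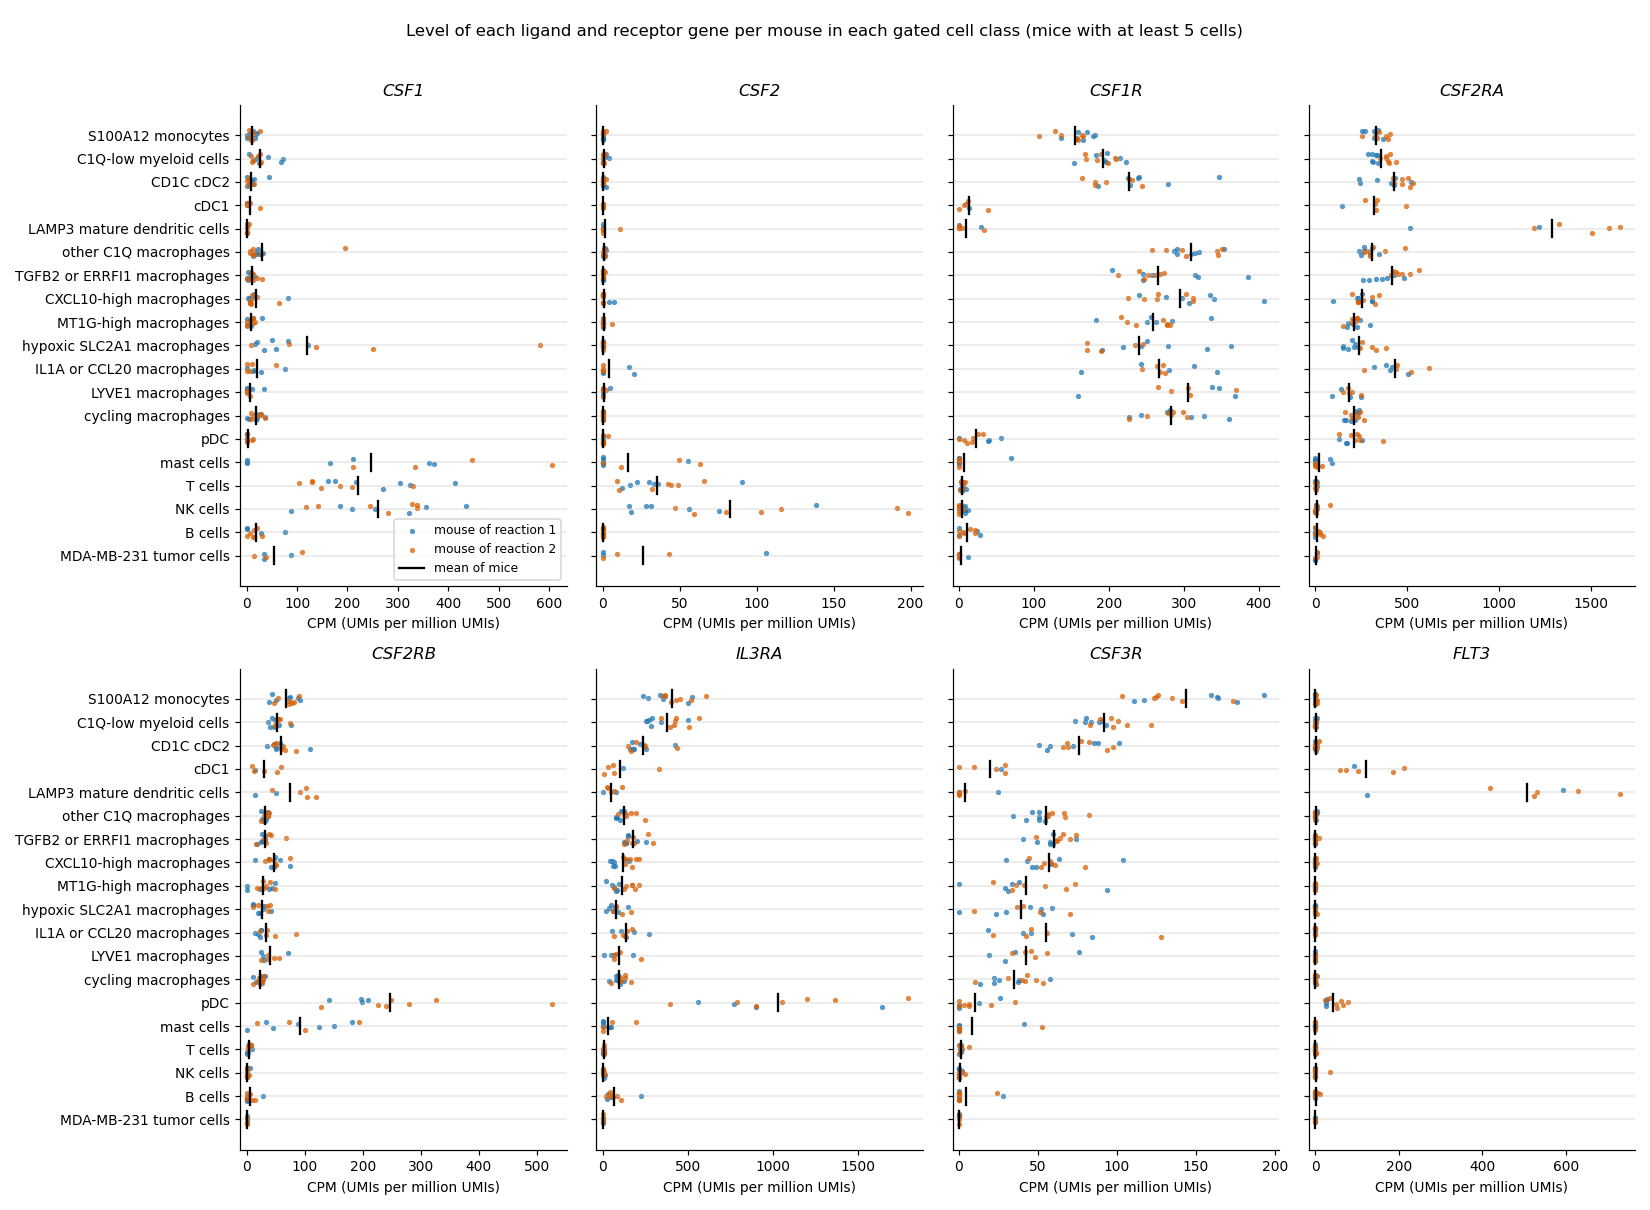
Level of each gene in CPM (UMIs of the gene per 1000000 UMIs of the class, linear axis, 1 axis range per gene) for every mouse with at least 5 cells of the class, in the 19 gated classes; points are mice, coloured by reaction, and black bars are means. CSF1 lies to the right in T, NK and mast cells and in some mice for hypoxic macrophages, and CSF2 in NK, T, tumor and mast cells. CSF1R spreads over macrophages, FLT3 stands out in LAMP3 mature dendritic cells and cDC1, and IL3RA in pDC.

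By share of UMIs, which follows class size, receptor genes were almost confined to myeloid cells and pDC. By level, mast cells had 91.5 CPM of CSF2RB and B cells 66.4 CPM of IL3RA. Myeloid classes held 99.1% of the gated CSF1R UMIs, 98.1% of those of CSF2RA, 99.2% of CSF3R, 90.9% of IL3RA, 87.2% of FLT3 and 86.1% of CSF2RB. pDC, with 135 cells, held 9.62% of the CSF2RB, 7.88% of the IL3RA and 9.38% of the FLT3 UMIs. In T cells the 6 receptor genes had means from 0.33 to 5.05 CPM, and 3.17% of T cells had a CSF1R UMI at a median of 6794 UMIs per cell, which gives the level in cells that should lack the gene. The whole of the FLT3 RNA in NK cells, 18 UMIs, lay in 1 cell, which also held 39 of their 58 CSF2RA UMIs.

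CSF1R was highest in macrophages. Its mean level was 310.0 ± 29.7 CPM in C1Q macrophages without a special state (SD, n = 14), 305 ± 65.7 in LYVE1 macrophages (n = 9) and 295 ± 47.3 in CXCL10-high macrophages (n = 14). It then ran through the other macrophage states, from 282 ± 37.3 in cycling to 241 ± 60.5 in hypoxic macrophages, to 226 ± 46.8 in CD1C cDC2, and no neighbours in this series differed by more than the larger of their SDs. Below them, myeloid cells low in C1Q had 192 ± 19.3 CPM, S100A12 monocytes 155 ± 20.8 and pDC 22.3 ± 18.1, and both of these steps exceeded the SD. cDC1 (13.5 CPM) and LAMP3 mature dendritic cells (9.52) stood close to B cells (11.01) and mast cells (6.26).

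CSF2RA had another order. LAMP3 mature dendritic cells led with 1288 ± 385 CPM (n = 7), beyond the spread of any other class, and 82 of 83 of these cells had a UMI. A broad group followed in which no neighbours differed beyond their SD, from IL1A or CCL20 macrophages at 433 ± 101 (n = 10), CD1C cDC2 at 427 ± 93.9 and TGFB2 or ERRFI1 macrophages at 416 ± 84.8 down to LYVE1 macrophages at 182 ± 49.3. pDC had 213 ± 67.8 CPM and S100A12 monocytes 334 ± 48.7. Mast cells, with 20.02 ± 34.6 CPM, were below all of these.

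The shared chain CSF2RB was highest in pDC, at 247 ± 108 CPM (n = 11), followed by mast cells at 91.5 ± 65.3 (n = 11), LAMP3 mature dendritic cells at 74.996 ± 38.7 (n = 7), S100A12 monocytes at 68.3 ± 18.0 and CD1C cDC2 at 59.1 ± 18.7. Only the step from pDC to mast cells exceeded the SD among these 5 classes. Cycling macrophages had the lowest level among the macrophage states, 22.8 ± 6.76 CPM (n = 14).

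IL3RA was likewise led by pDC, at 1033 ± 434 CPM, with 94.8% of 135 pDC carrying a UMI. S100A12 monocytes had 407 ± 104 CPM and myeloid cells low in C1Q 377 ± 101, which did not differ beyond their spread, and CD1C cDC2 had 234 ± 90.5. C1Q macrophages of all states had 124 ± 42.5 (n = 14). B cells had 66.4 ± 59.2 CPM (n = 11) and T cells 5.05 ± 2.68 (n = 14), and the lowest B-cell value, 20.9 CPM, lay above the highest T-cell value, 8.99. An IL3RA UMI was seen in 29 of 146 B cells. Unlike the T-cell gate, the B-cell gate set no limit on pDC markers, and any part of pDC in this level was not tested.

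CSF3R was highest in S100A12 monocytes. Its level fell from 144 ± 27.7 CPM in S100A12 monocytes to 91.8 ± 12.4 in myeloid cells low in C1Q, a step larger than the SD, and then to 76.2 ± 16.0 in CD1C cDC2 and 55.1 ± 11.7 in C1Q macrophages without a special state. cDC1 had 19.8 ± 12.1 CPM, pDC 10.1 ± 12.3 and LAMP3 mature dendritic cells 4.10 ± 9.26.

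FLT3 had the narrowest range. LAMP3 mature dendritic cells had 507 ± 194 CPM (n = 7), cDC1 122 ± 63.2 (n = 6) and pDC 43.4 ± 19.8 (n = 11), each step exceeding the SD. All other classes were at 2.57 CPM or less, CD1C cDC2 among them at 1.58 ± 2.47, and MT1G-high, IL1A or CCL20 and LYVE1 macrophages, mast and tumor cells had no UMI in mice with at least 5 cells. The CD1C cDC2 gate asked for at least 2 UMIs of CD1C, FCER1A or CLEC10A and did not exclude monocyte markers. Its cells had 226 CPM of CSF1R and 76.2 of CSF3R beside little FLT3, so the name rests on the gate markers. Whether monocytes are among them was not tested. LAMP3 mature dendritic cells and cDC1, 141 cells in all, held 743 of the 818 myeloid FLT3 UMIs (90.8%). A FLT3 UMI was seen in 67.5% of LAMP3 mature dendritic cells (95% exact binomial interval 56.3% to 77.4%), 55.2% of cDC1 (41.5% to 68.3%) and 37.8% of pDC (29.6% to 46.5%), against 1.71% of CD1C cDC2 (0.691% to 3.49%) and 0.298% of T cells. These intervals, like all 95% intervals given here, cover counting error only. With each cell thinned to 2000 UMIs, the shares became 47.0%, 14.04%, 10.6% and 0% for the first 4 classes (classes in the same order), so the shares were lower and their order stayed.

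The first comparison was between S100A12 monocytes and C1Q macrophages, which mark the ends of the range from infiltrating monocyte to tissue macrophage, in the same 14 mice. All 6 family genes with enough UMIs were called, where 56.5% of the 11333 genes tested were, so a call was common among all genes as well. CSF1R had a range of 107 to 182 CPM in monocytes (median 159) and 259 to 337 in macrophages (median 294), with no overlap. It was lower in monocytes by 0.84 on the log2 scale (SE 0.07, edgeR adjusted p = 3.0e-11). IL3RA went the other way, from 235 to 605 CPM in monocytes (median 383) against 66.3 to 227 in macrophages (median 118). Its log2 fold change was 1.86 (SE 0.11, adjusted p = 6.0e-14), and it was higher in the monocytes of 14 of 14 mice.

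CSF3R followed IL3RA, with 104 to 193 CPM in monocytes and 35.9 to 60.1 in macrophages, and a log2 fold change of 1.604 (SE 0.10, adjusted p = 6.9e-14). The shared chain CSF2RB was 1.16 higher (SE 0.10, adjusted p = 1.4e-10), also in all 14 mice, while CSF2RA differed far less, at 0.32 (SE 0.08, adjusted p = 0.00134), with overlapping ranges and 10 of 14 mice higher, and it was not called in reaction 1 alone (0.29, adjusted p = 0.0818). CSF1 itself was lower in monocytes by 0.95 (SE 0.30, adjusted p = 0.00818). A single macrophage held 139 CSF1 UMIs, 12.4% of the total of all C1Q macrophages, and without the third maraviroc mouse of reaction 2 the CSF1 difference was -0.59 (adjusted p = 0.0535) and no longer passed, nor did it with stricter gates (-0.39, adjusted p = 0.194) or in reaction 1 alone (-0.77, adjusted p = 0.118). In the pathway list, 23 genes were tested, of which 11 were higher and 4 lower in monocytes. The ends of the list were the kinase gene PIM1 (1.32, SE 0.10) on the higher side and KITLG, the ligand of KIT (-2.73, SE 0.46), and the survival gene BCL2L1 (-0.82, SE 0.13) on the lower side.

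CD1C cDC2 also had less CSF1R and CSF1 and more of the other 4 receptor genes tested than C1Q macrophages. All 6 tested genes were called, against 42.3% of all genes. CSF1R was lower by 0.38 (SE 0.08, edgeR adjusted p = 1.5e-04), with 165 to 347 CPM in cDC2 and a lower value than in macrophages in 13 of 14 mice, but in reaction 1 alone it was not called (-0.33, adjusted p = 0.0829). CSF2RA was higher by 0.59 (SE 0.09), CSF2RB by 0.86 (SE 0.12), IL3RA by 0.89 (SE 0.13) and CSF3R by 0.57 (SE 0.10), and CSF1 was lower by 1.41 (SE 0.35, adjusted p = 0.00176). With stricter gates CSF1 (-1.09, adjusted p = 0.0810) and CSF3R (0.31, adjusted p = 0.154) no longer passed, nor did CSF1 in reaction 1 alone (-0.60, adjusted p = 0.347). The monocyte and the cDC2 comparison share the macrophage samples. The CD1C cDC2 gate did not exclude monocyte markers, and the part of monocytes in these differences was not tested. Of the pathway list, 4 of 23 tested genes were higher and 5 lower, with PIM1 (0.57) and the feedback gene SOCS3 (0.29) at the upper end and KITLG (-3.34) and SOCS2 (-1.32) at the lower end.

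**Figure D2:**
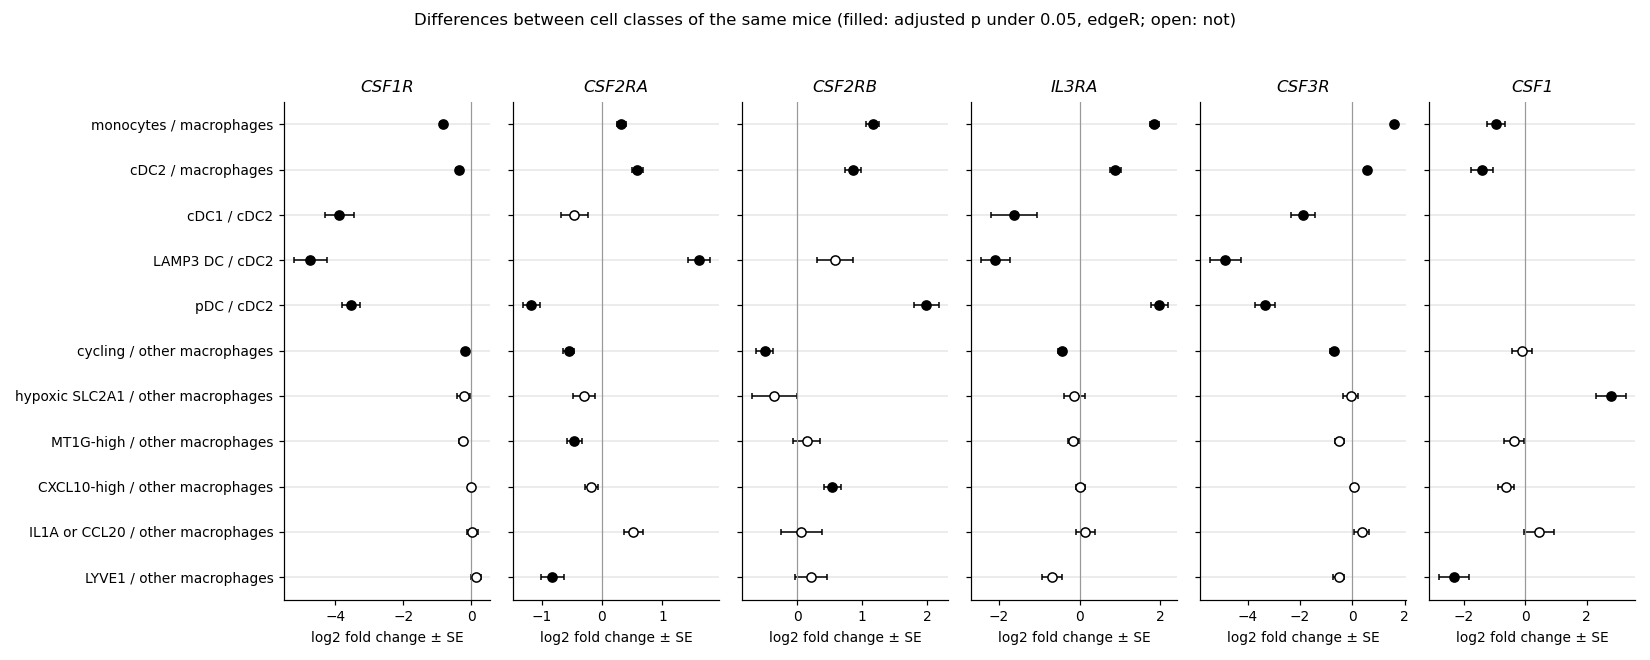
Log2 fold change ± SE (edgeR) of 5 receptor genes and CSF1 between cell classes of the same mice, 1 row per comparison; filled points have an adjusted p under 0.05, and a missing point means that the gene was not tested. CSF1R lies left of 0 in monocytes and all dendritic cells, while the shifts between macrophage states are mostly within 1 log2 unit, apart from CSF1 in hypoxic and LYVE1 macrophages.

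Dendritic cell types were set against CD1C cDC2. The gate of this reference class did not exclude monocyte markers, so the differences hold for the class as gated. In cDC1 (6 mice with at least 5 cells of both types), 4 of 5 tested genes were called, against 36.7% of all genes. CSF1R had 7 UMIs in cDC1 and 616 in cDC2 of these mice, at 0 to 38.8 CPM against 165 to 244, and was lower by 3.88 (SE 0.43, edgeR adjusted p = 7.0e-05). CSF3R was lower by 1.87 (SE 0.46, adjusted p = 0.00902), at 0 to 29.3 CPM against 68.7 to 97.9. FLT3 was higher, with 71 UMIs against 3, and ranged from 58.9 to 214 CPM in cDC1 and from 0 to 4.45 in cDC2 (adjusted p = 1.0e-04), a ratio of pooled levels of 125 (95% counting interval 41.0 to 619). FLT3, CSF1R and CSF3R could pass the filter on low counts only through the class that held them. That favours a call, so their p-values add little to the UMIs and levels. IL3RA was lower by 1.63 (SE 0.57, adjusted p = 0.0434), but this call was lost without any of the 6 mice but the second untreated mouse of reaction 2, with values from -1.62 to -1.31, and in reaction 2 alone (-1.605, adjusted p = 0.0937). CSF2RA did not pass, with a difference of -0.46 (SE 0.22, adjusted p = 0.132). Of the pathway list, 2 of 11 tested genes were higher, INPP5D, a lipid phosphatase (1.17, SE 0.26), and CBL, a ubiquitin ligase (0.91, SE 0.31), and 5 lower, SOCS3 (-1.605) and PIM1 (-1.55) most.

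LAMP3 mature dendritic cells, which have left the antigen-sampling state and carry CCR7, were compared with cDC2 in 7 mice. Of 6 tested genes 5 were called, against 48.8% of all genes. FLT3 counted 509 UMIs in the mature cells against 4 in cDC2 of the same mice, or 124 to 729 CPM (median 531) against 0 to 4.45, and was higher in 7 of 7 mice (adjusted p = 1.6e-10, edgeR). CSF2RA was higher by 1.61 (SE 0.18, adjusted p = 8.8e-07), at 518 to 1658 CPM against 412 to 534, in 7 of 7 mice. The macrophage and granulocyte receptor genes were much lower than in cDC2. They were low in cDC1 as well (means of 13.5 CPM of CSF1R and 19.8 of CSF3R), and descent of the mature cells from cDC2 was not tested. In the mature cells CSF1R had 6 UMIs against 738 in cDC2 and CSF3R 2 against 275, with edgeR adjusted p of 4.4e-07 and 3.0e-06. Here too, FLT3, CSF1R and CSF3R could pass the filter on low counts only through 1 class. That favours a call, so their p-values add little to the UMIs and levels. The level of CSF3R was 0.0275 of that in cDC2 (95% counting interval 0.0033 to 0.10). IL3RA was lower by 2.10 (SE 0.36, adjusted p = 1.0e-04), with 0 to 115 CPM against 151 to 436. CSF2RB differed by 0.58 (SE 0.27, adjusted p = 0.0873). In reaction 2 alone, and without the third maraviroc mouse of reaction 1 or the second untreated mouse of reaction 2, it passed, at 0.75, 0.69 and 0.74. Feedback inhibitors of cytokine signalling stood at the upper end of the pathway list, SOCS2 at 4.18 (SE 0.41) and SOCS1 at 4.06 (SE 0.40), and OSM (-3.81) and PIM1 (-3.03) at the lower end. In all, 2 of 18 tested genes were higher and 8 lower.

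pDC were compared with cDC2 in 11 mice, and all 6 tested genes were called, against 60.0% of all genes. IL3RA was higher by 1.98 (SE 0.21, edgeR adjusted p = 7.0e-09), at 394 to 1793 CPM (median 899.9) against 151 to 436. CSF2RB was higher by 1.98 (SE 0.19, adjusted p = 1.2e-09), at 129 to 525 CPM against 45.4 to 84.8, with no overlap. FLT3 was higher, with 79 UMIs against 7 and a log2 fold change of 4.44 (SE 0.53). CSF1R (-3.54, SE 0.26), CSF3R (-3.35, SE 0.38) and CSF2RA (-1.17, SE 0.15) were lower. For FLT3, CSF1R and CSF3R the filter on low counts could again be passed only through 1 class, which favours a call. The feedback genes SOCS1 (3.22, SE 0.25) and CISH (2.15, SE 0.24) led the 5 higher genes of the 18 tested from the pathway list, and PIM1 (-3.34, SE 0.30) and OSM, of which pDC held 3 UMIs in all, ended the 10 lower ones.

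The alpha chains were also set against the shared chain, as a description with no test. A ratio between 2 genes also carries the efficiency with which each is captured, so the values are compared only between classes and not read as numbers of chains. S100A12 monocytes had 5.20 ± 1.52 CSF2RA UMIs per CSF2RB UMI (SD, n = 14), C1Q macrophages 8.99 ± 1.35 (n = 14), CD1C cDC2 7.53 ± 1.85 (n = 14) and LAMP3 mature dendritic cells 20.98 ± 8.91 (n = 7). pDC had 0.9896 ± 0.477 (n = 11) and mast cells 0.333 ± 0.641 (n = 10 with a CSF2RB UMI). For IL3RA per CSF2RB the values were 6.31 ± 2.04 in monocytes, 3.75 ± 0.762 in macrophages, 4.93 ± 2.78 in pDC and 0.629 ± 0.483 in LAMP3 mature dendritic cells. These are means of ratios per mouse, which a small CSF2RB count can raise. Over the pooled cells, CSF2RA per CSF2RB was 4.92 in monocytes, 8.92 in macrophages, 13.9 in LAMP3 mature dendritic cells and 0.884 in pDC. Pooled IL3RA per CSF2RB was 6.23 in monocytes, and pDC (3.94) and macrophages (3.80) were close. Both GM-CSF receptor chains were detected together in 63.0% of pDC, 57.8% of LAMP3 mature dendritic cells, 42.4% of monocytes and 21.01% of macrophages, and both IL-3 receptor chains in 77.8%, 20.5%, 41.4% and 12.2%. Mast cells had 3.17% in both cases at a median depth of 3308 UMIs, which limits joint detection. CSF2RA and FLT3 were seen together in 66.3% of LAMP3 mature dendritic cells, 51.7% of cDC1 and 31.9% of pDC, and in 0.374% of macrophages. Depth differed between these classes as well. Reaction 1 medians were 4819 UMIs in C1Q macrophages, 8993.5 in monocytes, 9751 in LAMP3 mature dendritic cells and 11085.5 in pDC. Shares of joint detection were not thinned to 1 depth, so they mix depth with level.

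**Figure D3:**
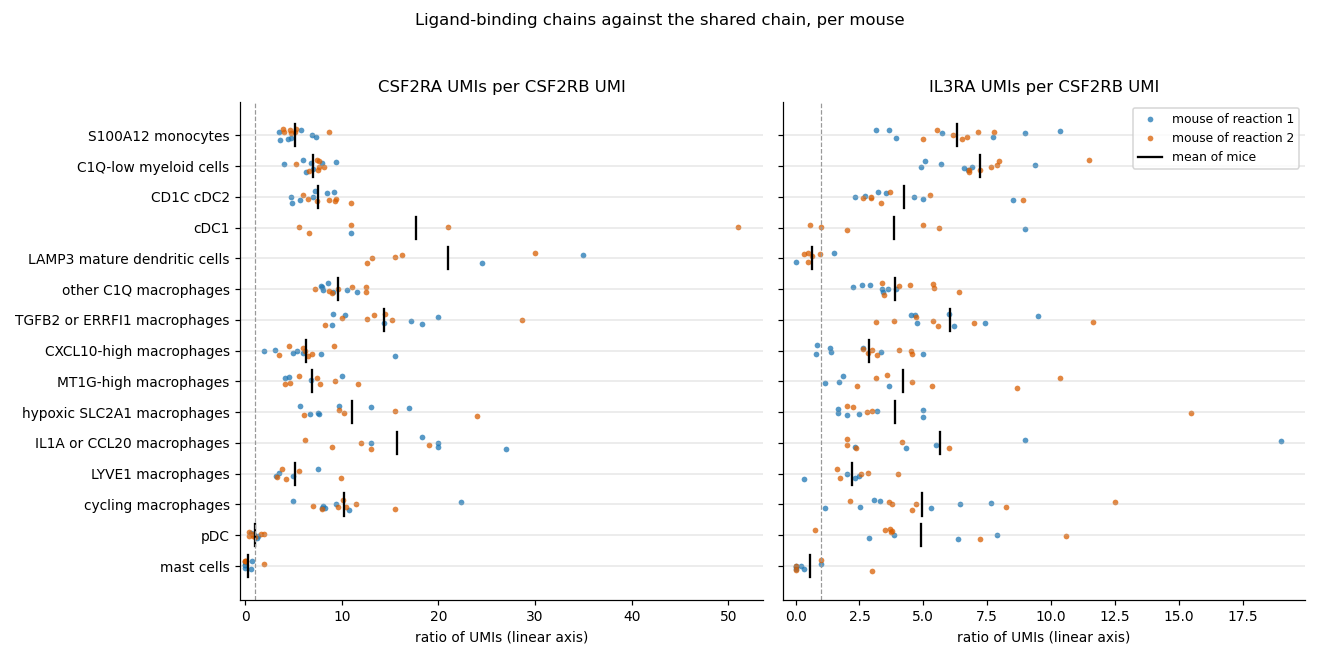
UMIs of CSF2RA (left) and IL3RA (right) per UMI of the shared chain CSF2RB on linear axes, for each mouse with at least 5 cells and a CSF2RB UMI in the class; points are mice, coloured by reaction, black bars are means and the dashed line marks a ratio of 1. LAMP3 mature dendritic cells lie at 12.6 to 35.0 for CSF2RA, and pDC at 0.406 to 1.90.

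Mast cells carried ligand RNA and the shared chain with little of the other receptors. They were compared with all myeloid cells in 6 mice with at least 10 mast cells, and all 8 genes were called, against 32.2% of all genes. CSF2 lay at 0.126 to 1.32 CPM in the myeloid cells, and FLT3 had no UMI in the mast cells. These genes could pass the filter on low counts only through the group that held them, which favours a call. The median of all tested genes was itself -0.39 on the log2 scale, and mast cells had a median of 1674 UMIs in reaction 1 and 5033 in reaction 2. CSF1 was higher by 3.48 (SE 0.29, edgeR adjusted p = 3.6e-31), at 0 to 605 CPM (median 211) against 14.5 to 35.1, in 5 of 6 mice. The p-values of this comparison rest on a variance pooled over genes and do not measure the spread of each gene over the 6 mice. CSF2, with 16 UMIs against 24 in the far larger myeloid pool, was higher by 5.45 (SE 0.71), in 4 of 6 mice. CSF2RB was higher by 1.23 (SE 0.33, adjusted p = 9.0e-04) in 6 of 6 mice, but without the third untreated mouse of reaction 2 it stood at 0.90 (adjusted p = 0.0697) and was not called, nor was it in reaction 1 alone (1.25, adjusted p = 0.196).

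On the lower side, CSF1R had 5 UMIs and a log2 fold change of -4.64 (SE 0.45), CSF2RA 10 UMIs and -4.00 (SE 0.38), IL3RA 21 UMIs and -2.39 (SE 0.35), and CSF3R 3 UMIs, or 0.111 of the myeloid level (95% counting interval 0.0228 to 0.324), a call that was lost in reaction 1 alone (adjusted p = 0.204). FLT3 had no UMI in mast cells. At a floor of 3 UMIs over the whole class, that is 5.53 CPM, it was at least 1.69-fold lower than in the sum of all myeloid cells. LAMP3 mature dendritic cells and cDC1 held most FLT3 UMIs of that sum. The other myeloid classes had means of 1.58 CPM or less, below this floor, so mast cells cannot be told apart from them. The FLT3 call (adjusted p = 0.0182) was lost with DESeq2 (0.531), in reaction 2 alone (0.0999), and without the third maraviroc mouse of reaction 1 (0.0523) or the first (0.0801) or second (0.122) maraviroc mouse of reaction 2. In the pathway list, 4 of 25 tested genes were higher and 12 lower, with KIT, the stem cell factor receptor that defines mast cells, at 803 CPM and a log2 fold change of 11.93 (SE 0.39), and IL5RA, an alpha chain that pairs with CSF2RB, at 92.1 CPM and 7.75 (SE 0.61). KITLG, with no UMI in mast cells, was among the lowest.

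Macrophage states were next set against C1Q macrophages without a special state, apart from TGFB2 or ERRFI1 macrophages, which were described by their levels and not tested. Hypoxic SLC2A1 macrophages had more CSF1 RNA. In the 6 mice with at least 10 such cells the level was 16.8 to 251 CPM (median 90.0) against 6.64 to 24.0, and higher in 5 of 6 mice. The log2 fold change was 2.79 (SE 0.48, edgeR adjusted p = 3.6e-04), 1 of 6 tested genes was called, against 6.93% of all genes, and CSF1R differed by -0.23 (SE 0.18, adjusted p = 0.525). The transcripts were uneven, as 34 of 137 hypoxic cells held all 197 CSF1 UMIs and 1 cell held 40 (20.3%). In reaction 1 alone the difference was 1.56 (adjusted p = 0.107). The share of cells with a CSF1 UMI was 23.9% in reaction 1 and 25.8% in reaction 2, against 7.35% and 7.65% in macrophages without a special state, and at 2000 UMIs per cell it was 10.3% and 12.1% against 4.23% and 2.19%. In the pathway list BCL2L1 was higher (1.03, SE 0.26) and JAK2 (-0.78, SE 0.23) was among the 2 lower genes, of 21 tested.

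LYVE1 macrophages, a state known from perivascular tissue macrophages, lay at the other end for CSF1. In 5 mice it ranged from 0 to 9.50 CPM against 12.4 to 28.6 and was lower by 2.32 (SE 0.50, edgeR adjusted p = 0.00455), with 7 UMIs in all. CSF2RA was lower by 0.82 (SE 0.19, adjusted p = 0.00771), at 91.6 to 247 CPM against 264 to 381. CSF1 and CSF2RA were the 2 calls among 6 tested genes, against 13.9% of all genes called. CSF1 was not called with stricter gates (-1.87, adjusted p = 0.0528), nor CSF2RA in reaction 2 alone (-0.54, adjusted p = 0.128). IL3RA was lower in 5 of 5 mice, at -0.70 (SE 0.25), without passing (adjusted p = 0.0776). KITLG (3.06, SE 0.35) and SOCS2 (1.23, SE 0.33) were highest of the 3 higher pathway genes and INPP5D (-0.81) and GRB2 (-0.59) lowest of the 3 lower ones, of 20 tested.

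Cycling macrophages had lower levels of 5 of 6 tested genes, against 32.9% of all genes called. CSF3R was lower by 0.71 (SE 0.13, edgeR adjusted p = 7.6e-05), CSF2RA by 0.55 (SE 0.09), CSF2RB by 0.50 (SE 0.13), IL3RA by 0.43 (SE 0.10) and CSF1R by 0.20 (SE 0.06, adjusted p = 0.0120). CSF2RA was lower in 14 of 14 mice and CSF1R in 12 of 14. None of the 22 tested pathway genes was higher and 8 were lower, the signal transducer STAT5B (-0.63) and BCL2L1 (-0.61) most. With stricter gates 3 of the 5 calls remained, and in reaction 1 alone 2.

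CXCL10-high, MT1G-high and IL1A or CCL20 macrophages each had at most 1 call. In CXCL10-high macrophages, marked by an interferon-induced chemokine, CSF2RB was higher by 0.54 (SE 0.13, edgeR adjusted p = 0.00498) in 13 of 14 mice, at 14.9 to 74.4 CPM (median 46.5) against 25.2 to 39.2 (median 32.4), and it was the only call of 6 tested genes, against 9.90% of all genes. It missed the threshold in reaction 1 (0.58, adjusted p = 0.195) and reaction 2 (0.49, adjusted p = 0.0795) taken alone. CSF1 differed by -0.62 (SE 0.26, adjusted p = 0.153), and by -0.84 (adjusted p = 0.0305) without the second maraviroc mouse of reaction 1. The interferon-inducible feedback gene SOCS1 (2.03, SE 0.26) and JAK2 (1.09, SE 0.11) led 5 higher pathway genes of 21 tested, with none lower. In MT1G-high macrophages, marked by a metallothionein, CSF2RA was lower by 0.46 (SE 0.12, adjusted p = 0.0283) in 10 of 11 mice, 1 call of 6 against 2.66% of all genes, and this call was lost without any of the 11 mice but the third maraviroc mouse of reaction 1, at adjusted p of 0.0523 to 0.109. CSF3R, at -0.49 (SE 0.18, adjusted p = 0.161), did not pass. INPP5D (-0.54, SE 0.14) was the only call among 22 pathway genes tested. In IL1A or CCL20 macrophages none of 6 genes was called, against 1.84% of all genes. CSF2RA was higher there in 5 of 5 mice, by 0.52 (SE 0.15, adjusted p = 0.119), and with mice of at least 5 cells, 10 in all, it passed at 0.53 (adjusted p = 0.0276). OSM, a cytokine gene induced by STAT5 (0.79, SE 0.19), was higher and INPP5D (-0.83, SE 0.21) lower, of 20 pathway genes tested.

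To ask which genes share the distribution of each family gene over the 19 classes, log2(CPM + 1) was correlated across the classes for 15640 genes, as a description without a test. Pooled classes differ in depth and share libraries. CSF1R was most like MS4A7 (Pearson r = 0.983), SCPEP1 (0.977) and FPR3 (0.974). CSF3R was most like NLRC4 (0.968), MOB3B (0.966) and SLC43A2 (0.962), and CSF2RA like ZMYND15 (0.932), MNDA (0.928) and CYP2S1 (0.908). CSF1 was closest to TBC1D20 (0.879) and MTFP1 (0.864). CSF2 was closest to TIE1 (0.970), NDFIP2 (0.945) and ELOVL6 (0.940). IL3RA and CSF2RB shared 1 of their nearest genes, AP000763.3 (0.912 and 0.921), beside RELT (0.935) and CXorf21 (0.907) for IL3RA and AC022217.3 (0.894) and M6PR (0.891) for CSF2RB. FLT3 was closest to PLEKHG4B (0.923), RUFY3 (0.900) and CERS6-AS1 (0.883).

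Maraviroc-treated mice were compared with untreated mice in 6 cell groups, with the reaction as a covariate and 7 mice of each treatment. With the filter on low counts no family gene was called in any group, and 0% of all genes were called in each of the 6. The genes tested numbered 13023 in all myeloid cells, 11803 in C1Q macrophages, 6676 in S100A12 monocytes, 6309 in conventional dendritic cells, 11029 in T cells and 5567 in NK cells. At an unadjusted p under 0.05 edgeR listed 530, 452, 240, 287, 602 and 223 genes, and DESeq2 called 2, 0, 0, 0, 2 and 1 after adjustment, none of them of this family. With no filter on low counts edgeR did call FLT3 in conventional dendritic cells (1.55, adjusted p = 0.00487), and CSF2RA (-2.35, adjusted p = 0.00884) and FLT3 (-4.46, adjusted p = 0.0309) in NK cells, where all FLT3 UMIs and 39 of 58 CSF2RA UMIs lay in 1 cell. In conventional dendritic cells 104 of the 112 FLT3 UMIs lay in cDC1, so the sum can follow the share of cDC1, whose part was not tested. The FLT3 effect there differed between the reactions by -4.97 (reaction 2 minus reaction 1, SE 1.41). That term had an edgeR unadjusted p of 0.0025 and an adjusted p of 0.581. None of the tested genes of the pathway list was called either.

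CSF1R in C1Q macrophages was the most tightly determined. Untreated mice lay between 259 and 315 CPM (median 288) and treated mice between 265 and 337 (median 299.8), with a log2 fold change of 0.03 (SE 0.06) and an interval of 2 SE from -0.09 to 0.14. CSF2RA in all myeloid cells differed by 0.09 (SE 0.08, interval -0.08 to 0.25), by -0.09 (SE 0.10) in reaction 1 and by 0.26 (SE 0.08, edgeR adjusted p = 0.730) in reaction 2, and so had no common direction. IL3RA in all myeloid cells differed by -0.06 (SE 0.18). In monocytes IL3RA had 351 to 522 CPM without and 235 to 605 with maraviroc, a difference of -0.26 (SE 0.16), made up of -0.63 (SE 0.21) in reaction 1 and 0.02 (SE 0.18) in reaction 2, and CSF3R differed by -0.15 (SE 0.14). CSF1R in conventional dendritic cells differed by -0.24 (SE 0.14). CD1C cDC2, whose gate did not exclude monocyte markers, made up 409 of the 467 cells of that group.

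The ligand genes varied more between mice. CSF1 in T cells was 257 ± 87.3 CPM in untreated mice (SD, n = 7) and 186 ± 89.9 in treated mice (n = 7), with ranges of 175 to 413 and 104 to 324. The log2 fold change was -0.44 (SE 0.23, edgeR adjusted p = 0.891), with -0.0083 (SE 0.33) in reaction 1 and -0.85 (SE 0.19, adjusted p = 0.614) in reaction 2. In NK cells CSF1 was 262 ± 126 and 257 ± 79.9 CPM, with a difference of -0.09 (SE 0.25), and CSF2 was 90.0 ± 62.1 and 75.5 ± 61.0, with a difference of -0.42 (SE 0.38). CSF2 in T cells differed by 0.08 (SE 0.44). CSF1 in C1Q macrophages differed by 0.68 (SE 0.39), by 0.16 (SE 0.18) in reaction 1 and 1.11 (SE 0.63) in reaction 2, with a highest value of 107 CPM in 1 treated mouse. A single cell held 139 of the 1124 CSF1 UMIs of all C1Q macrophages. Its part in this difference was not tested.

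FLT3 in all myeloid cells had the largest of the tested differences, 5.22 ± 4.88 CPM in untreated mice (median 4.24) and 12.4 ± 7.33 in treated mice (median 14.4), with overlapping ranges of 1.27 to 15.4 and 1.32 to 22.5. The log2 fold change was 1.23 (SE 0.52, edgeR adjusted p = 0.9999), 1.82 (SE 0.65) in reaction 1 and 0.80 (SE 0.66) in reaction 2. It was the only family gene listed at an unadjusted p under 0.05. LAMP3 mature dendritic cells and cDC1 made up 1.04% ± 0.759 of the myeloid cells in untreated mice (0.267% to 2.43%) and 2.26% ± 1.14 in treated mice (0.670% to 4.15%). These ranges overlapped, the difference in share was not tested, and the part of this share in the FLT3 difference was not tested. Sums over all myeloid cells cannot tell more FLT3-bearing cells from more RNA per cell. The effect of maraviroc was also compared between the reactions, and none of the 32 interaction terms of family genes was called. At an unadjusted p under 0.05, edgeR listed 1886 of 13511 genes in all myeloid cells and 1173 of 12220 in C1Q macrophages. Family genes listed were CSF2RA (0.36) and IL3RA (0.70) in all myeloid cells, IL3RA (0.65) in monocytes and FLT3 (-4.97) in conventional dendritic cells. The other terms were not listed. The lack of calls does not show that the reactions agree.

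**Figure D4:**
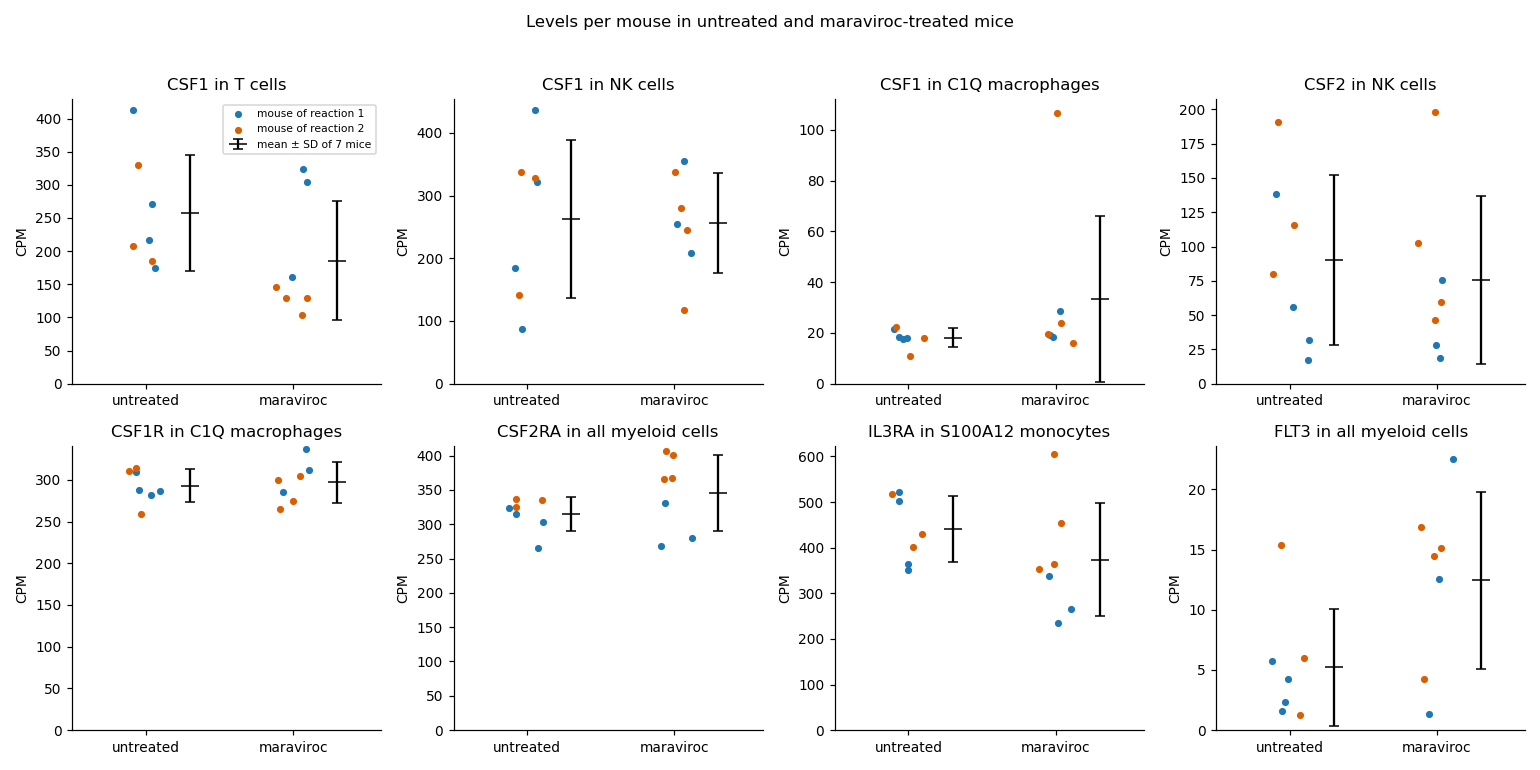
Level in CPM (linear axes from 0) of selected genes and cell groups in untreated and maraviroc-treated mice; points are mice, coloured by reaction, and bars beside them are mean ± SD of 7 mice. The 2 treatments overlap in all 8 panels, and 1 treated mouse stands apart at 107 CPM for CSF1 in C1Q macrophages.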

How the data were processed

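Single-cell 3′ RNA and hashtag libraries of 2 reactions were used. The deposited UMI counts, raw and not normalized, were made by the authors with Cell Ranger 9.0.1 on GRCh38, and the authors analysed them with Seurat 5.1.0 (versions from the submitters' processing notes). The total count was 133089612 gene UMIs over all barcodes of reaction 1 and 175447534 of reaction 2. Every barcode column was read (0 left out at this step), and the filters described here then selected the kept cells. The family, gates and lists were chosen with earlier results of these data known.

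Hashtags were assigned with HTODemux (Seurat 5.3.0, positive quantile 0.99), and the treatment was read from the hashtag name. Barcodes with 2 or more hashtags (10174 and 2142 within the limits) or none (5554 and 119) were left out, and this was the only treatment of doublets. Doublets within 1 mouse remain. A cell entered a gate by a least number of marker UMIs and a least rate per 10000 UMIs (T cells 3 and 5, NK 5 and 30, B 3 and 12, pDC 3 and 5, mast 5 and 30, tumor 5 and 5, myeloid 3 and 10, C1Q 3 and 10). Markers of some other lineages, not all in every gate, were limited by rate. Markers were CD3D, CD3E, CD3G and TRAC for T cells, TPSAB1, TPSB2, CPA3, MS4A2 and HDC for mast cells, CLEC4C, LILRA4, SCT and PTCRA for pDC, and further sets of the same kind. Classes rest on these rebuilt gates, since no annotation of single cells was used here.

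UMIs were summed per mouse and class and tested with edgeR 4.0.16 in R 4.3.3 (quasi-likelihood test, TMM, filterByExpr, Benjamini-Hochberg over all genes tested), with a call at an adjusted p under 0.05. The SE given with edgeR was derived from the log2 fold change and the F statistic of the test. It is approximate, and so are the intervals of 2 SE. Treatment was fitted with the reaction as a covariate, and classes were compared with the mouse as a block, in mice with at least 10 cells of both classes. Where fewer than 5 mice reached this (cDC1, LAMP3 mature dendritic cells, pDC, tumor cells), 5 cells sufficed, a choice made after seeing the data. Mice are the replicates, known only by hashtag. The p-values rest on the spread between them, as moderated over all genes tested. They therefore do not measure the spread of a single gene alone. A gene could pass the filter through 1 of the 2 classes alone, such as FLT3 against CD1C cDC2, which favours a call. Mean levels use mice with at least 5 cells. The 8 genes are named throughout. Of the 30 pathway genes the 2 highest and 2 lowest called were named, and for each family gene the 3 genes most alike over 19 classes. A few items that these rules name are not reported here. The fits were tested on simulated data. Alternatives were DESeq2 1.42.0, no filter on low counts, stricter gates (marker UMIs multiplied by 2), above 1000 genes, all barcodes, each reaction alone, no reaction term, each mouse left out, and thinning to 2000 UMIs.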

Additional observations from a re-analysis of the deposited data

Results flagged for a closer look

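Levels of the 8 genes were searched for single mice far from the other 6 of their treatment, by Dixon's test at the 95% level, over 56 groups of 7 mice, and 6 stood apart. Chance gives about 1 in 20 such groups. In C1Q macrophages, the third maraviroc mouse of reaction 2 had 107 CPM of CSF1, where the other treated mice had 16.1 to 28.8, and 227 CPM of IL3RA, where the others had 93.3 to 143. A single cell held 139 of the 1124 CSF1 UMIs of all C1Q macrophages, so 1 cell can weigh heavily on a CSF1 value. In all myeloid cells, the fourth untreated mouse of reaction 1 had 31.9 CPM of CSF1 (others 14.4 to 19.9), and the first untreated mouse of reaction 2 had 15.4 CPM of FLT3 (others 1.27 to 6.02). In conventional dendritic cells, the first untreated mouse of reaction 1 had 223 CPM of CSF2RA (others 393 to 499.8), and the second untreated mouse of reaction 1 had 105 CPM of CSF2RB (others 45.5 to 60.5). The cause was not tested in any of these cases.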

How the results depend on the processing

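Of 47 called differences of family genes none reversed under any alternative that was run. DESeq2 kept 46 and lost 1, leaving out 1 mouse at a time kept the call in 441 fits and lost it in 20, stricter gates kept 35 and lost 6, reaction 2 alone kept 42 and lost 4, and reaction 1 alone, with fewer mice and shallower cells, kept 19 and lost 13. Not every call could be fitted with stricter gates or in each reaction alone, so these counts fall short of 47. A call that was not fitted in a setting was not checked by it. The cause of a lost call was not tested. The larger moves in the counts of called family genes were these. With no filter on low counts, 1 gene was called for maraviroc in conventional dendritic cells (FLT3, 1.55, adjusted p = 0.00487). Most FLT3 UMIs of that group lay in cDC1. In the same setting 2 were called in NK cells (CSF2RA and FLT3, whose FLT3 UMIs lie in 1 cell), and 2 each for CXCL10-high macrophages and for NK against T cells. In reaction 1 alone the counts were 4 for mast cells, 2 for cycling, and 0 for hypoxic, MT1G-high and CXCL10-high macrophages and NK against T cells. In reaction 2 alone they were 0 for CXCL10-high and 1 for LYVE1 macrophages and 2 for NK against T cells. With stricter gates they were 1 for LYVE1 and 3 for cycling macrophages and 2 for NK against T cells, beside 5 for monocytes and 4 for cDC2 against macrophages, and with 5 cells per mouse 1 for IL1A or CCL20 macrophages. Leaving out 1 mouse gave 2 to 4 for cDC1 (2 without the first maraviroc mouse of reaction 2), 0 to 1 for MT1G-high, 1 to 2 for CXCL10-high macrophages, and 1 to 2 for NK and for tumor cells against T cells. It was not run for IL1A or CCL20 and LYVE1 macrophages, where 5 mice were the least allowed.

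Differences that reversed were all uncalled. For maraviroc in all myeloid cells, CSF1 was -0.27 with stricter gates, CSF1R 0.10 and CSF2RA -0.085 in reaction 1 alone, and IL3RA 0.27 in reaction 2 alone and 0.081 without the reaction term. CSF1R in C1Q macrophages was -0.0086 and IL3RA in monocytes 0.022 in reaction 2 alone, and CSF2 in T cells -0.51 there and -0.63 with stricter gates. CSF1 in CXCL10-high macrophages was 0.24 with stricter gates. Leaving out 1 mouse moved CSF1R in myeloid cells from -0.043 to 0.027, IL3RA from -0.20 to 0.028, CSF1R in macrophages from -0.00275 to 0.056, CSF2 in T cells from -0.21 to 0.30 and CSF1 in NK cells from -0.21 to 0.048.

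Pooled levels moved beyond the spread between mice in 19 cases with all barcodes (157 did not), 5 with stricter gates, 1 above 1000 genes and 0 without shared barcodes. Thinning lowered 274 shares beyond their interval. Treated and untreated mice were different animals that no label links, so treatment was not tested as a paired difference. Class comparisons were blocked by mouse. Reaction 1 is shallow, LAMP3 mature dendritic cells, cDC1, mast and tumor cells number 126 at most, and low genes such as CSF2 and FLT3 outside their main classes are near the limit of detection.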

Other observations

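Kept barcodes that met no gate numbered 6529, most of them in reaction 1, at a median of 2257 UMIs. They held 2628 CSF1 UMIs, 131 ± 43.8 CPM (SD, n = 14 mice), and 45.8 ± 38.2 CPM of CSF2, beside 85.4 ± 39.4 CPM of CSF1R and 160 ± 40.6 of CSF2RA, so RNA of both lymphoid ligand genes and myeloid receptor genes lay outside the classes.

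TGFB2 or ERRFI1 macrophages and IL1A or CCL20 macrophages had higher mean ratios of CSF2RA to CSF2RB than the other macrophage states, with 14.3 ± 5.49 (SD, n = 14) and 15.7 ± 6.20 (n = 10) UMIs of CSF2RA per UMI of CSF2RB, against 9.59 ± 1.75 (n = 14) in C1Q macrophages without a special state and 5.11 ± 2.26 (n = 9) in LYVE1 macrophages. Hypoxic macrophages (11.1 ± 5.45, n = 12) and cycling macrophages (10.3 ± 4.24, n = 14) came nearest, with spreads that overlapped those of the 2 named states. CXCL10-high (6.27 ± 3.26, n = 14) and MT1G-high macrophages (6.91 ± 2.59, n = 11) were lower. Over the pooled cells the ratio was 14.3 in TGFB2 or ERRFI1 and 14.1 in IL1A or CCL20 macrophages. It was 9.26 in C1Q macrophages without a special state and 13.9 in LAMP3 mature dendritic cells. These differences were not tested.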
